A study of Homo sapiens with 2 samples.

Results

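The genes analysed here are those of the translation machinery that load amino acids onto tRNA and that start and extend the polypeptide chain: the eukaryotic initiation and elongation factors and the aminoacyl-tRNA synthetases. They were chosen by symbol from the RefSeq gene table of GRCh38.p14. Protein-coding genes whose symbol starts with EIF or EEF and a digit gave 69 translation factor genes. Symbols ending in ARS1, ARS2 or PRS1 gave 35 synthetase genes, of which 18 encode cytosolic and 17 mitochondrial enzymes. Together these are 104 of 20037 protein-coding genes on chromosomes 1 to 22, X and Y. Of the 2697 summits in the deposited list, 20 lay in one of these genes or within 1 kb of one.

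The list came from ChIP-seq (chromatin immunoprecipitation followed by sequencing) with an antibody against WSTF in SW620, an established line from a lymph node metastasis of a human colorectal adenocarcinoma. WSTF, the product of BAZ1B, is a bromodomain protein of ISWI chromatin remodelling complexes. The series holds 1 sample titled with the suffix IP and 1 titled with the cell line alone. Neither title nor annotation calls the second an input. The design text speaks of WSTF overexpression and of input DNA as the control, whereas the series title speaks of WSTF knockdown, so the WSTF level of the cells is not known here. A single list with no replicates was analysed, the depth is unknown, and a list of summits carries no expression with which to check the labelled cell type. All values below therefore describe positions in 1 list, and no difference between gene groups was tested.

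In translation initiation, EIF2 brings the initiator tRNA to the small ribosomal subunit, EIF3 holds the assembly together, and the EIF4 factors bind the mRNA cap and unwind the leader. The EEF1 complex then delivers each charged tRNA to the ribosome, and EEF2 moves the ribosome along. Synthetases charge each tRNA with its amino acid. Cytosol and mitochondria mostly use separate nuclear-encoded enzymes, while GARS1 and KARS1 serve both places. Under amino acid shortage, kinases that phosphorylate EIF2 raise the transcription factor ATF4, which is known to induce many cytosolic synthetase genes.

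Summits were found at 18 of the 104 genes (17.3%, exact Clopper-Pearson 95% interval 10.6 to 26.0), where a call means a summit inside the gene or within 1 kb of it. Over all protein-coding genes the share was 13.8% (2765 of 20037), inside the interval of the translation genes. With each chromosome weighted by its number of translation genes, the mean share of protein-coding genes called was 14.3%. The intervals cover counting error only. All 18 genes had a summit within 1 kb of an outer end of the gene (17.3%), against 11.6% of all protein-coding genes, which also lies inside that interval. The 18 genes were spread over 12 of the 23 chromosomes that hold a translation gene. Chromosome 11 held 3 of them (EIF4G2, EIF3M and EEF1G, of 7 translation genes there), while 20.9% of all protein-coding genes on that chromosome had a summit. Chromosomes 2 and 5, with 8 and 7 translation genes, held none. Of all protein-coding genes there, 151 of 1254 on chromosome 2 and 110 of 904 on chromosome 5 had a summit. Groups of 8 and 7 genes are too small for the lack of a call to be read as a difference. Counting summits inside the gene alone left 10 translation genes (9.62%), against 8.12% of all protein-coding genes, and a window of 5 kb gave 21 (20.2%) against 15.6%. Summits that scored at or above the median of the list were at 11 (10.6%) against 7.32%, and those that scored at least 3 at 12 (11.5%) against 9.63%.

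Gene length and promoter composition were set beside these shares because both moved with the presence of a summit over all protein-coding genes. Among genes of under 10 kb, 5 of 23 translation genes (21.7%, 7.46 to 43.7) had a summit, against 10.2% of all protein-coding genes. Between 10 and 50 kb it was 11 of 59 (18.6%, 9.69 to 30.9) against 15.5%. Over 50 kb it was 2 of 22 (9.09%, 1.12 to 29.2) against 14.9%. Promoters were read from RefSeq windows that run from 250 bases before to 50 bases after a gene start, which were found for 83 of the 104 genes. The median GC content of these windows was 63.3% for the translation genes and 62.3% for all protein-coding genes. In the class of 60 to 70% GC, which holds most of the translation genes, 10 of 54 (18.5%, 9.25 to 31.4) had a summit, against 16.1% of all protein-coding genes. At 70% GC or more it was 3 of 15 genes against 23.2%.

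**Figure D1:**
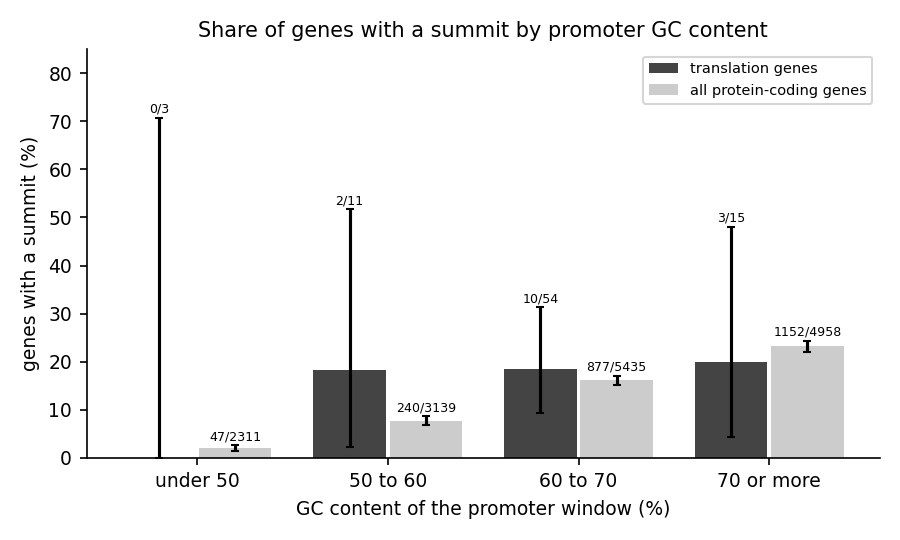
Share of genes with a summit (percent, y axis) by GC content of the promoter window (percent, x axis), for translation genes (dark) and all protein-coding genes (light), with exact 95% intervals and counts above the bars; each gene is placed by its window of highest GC. Over all protein-coding genes the share runs from 2.03% under 50% GC to 23.2% at 70% or more, and in each class the interval of the translation genes holds the share of all protein-coding genes.

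Grouped by role, 7 of 44 initiation factor genes (15.9%, 6.64 to 30.1), 3 of 10 elongation factor genes (interval 6.67 to 65.2%) and 1 of 15 genes of kinases, binding proteins and methyltransferases that act on the factors (6.67%, 0.169 to 31.9) had a summit, against 13.8% of all protein-coding genes. Cytosolic synthetases had one at 2 of 18 genes (11.1%, 1.38 to 34.7) and mitochondrial synthetases at 5 of 17 (29.4%, 10.3 to 56.0). The intervals of these groups overlap each other, and each holds the share of all protein-coding genes. Of the 69 factor genes together 11 were called (15.9%), and 3 (4.35%) when summits had to lie inside the gene, against 8.12% of all protein-coding genes.

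**Figure D2:**
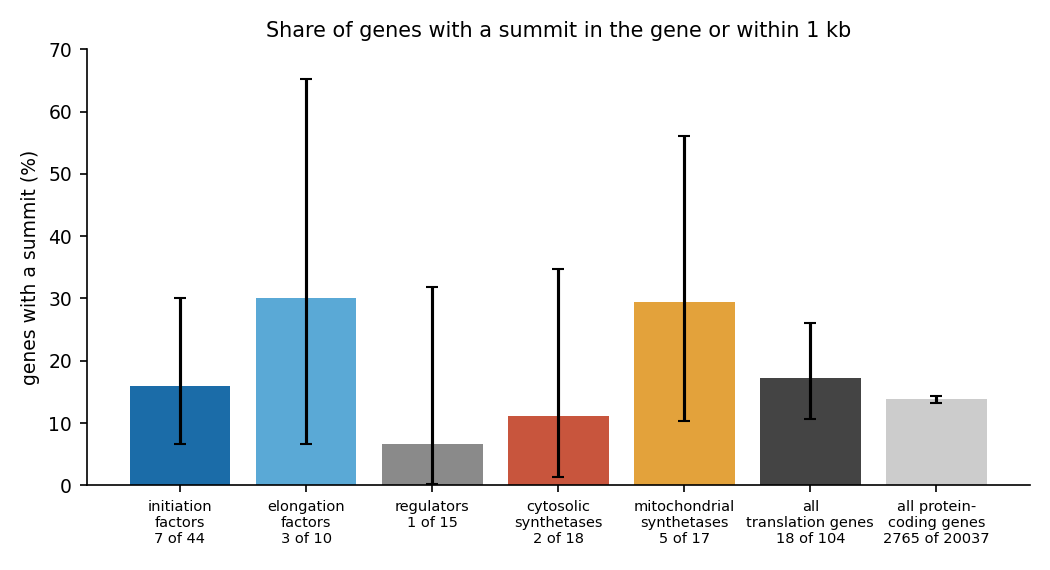
Percentage of genes called, with a summit inside or within 1 kb (y axis), for each role, for all 104 translation genes and for all protein-coding genes, with exact 95% intervals as error bars and the counts below the bars. Mitochondrial synthetases (5 of 17) and 3 of 10 elongation factors stand highest, with intervals that all hold the 13.8% of all protein-coding genes.

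The promoter sequences of the genes that carry these results are printed from RefSeq (GRCh38.p14), 5′ to 3′ on the strand of the gene, as the 250 bases that end just before the listed start nearest to the summit. Capitals mark exact matches on either strand to short motifs. These were GGGCGG for SP and KLF factors, CCAAT for NFY, CCGGAAG for ETS factors, the E-box CACGTG bound by MYC with MAX, the element TGATGNAA bound by ATF4 with C/EBP proteins, and the letters TATAAA of the TATA box. EIF4A2, CARS2 and EIF4G2 are shown as the genes with the highest scores (the −log10 q of the peak caller) within 1 kb of a listed start whose sequence could be printed. EIF4A2 (chr3:186783327-186783576, plus strand) had its summit at base 46 of the run and TATA letters 30 bases before the start. EIF4G2 (chr11:10808927-10809176, minus strand) had its summit at base 97. CARS2 (chr13:110706117-110706366, minus strand) has its listed start inside the gene, and its summit lies past the printed end.
EIF4A2: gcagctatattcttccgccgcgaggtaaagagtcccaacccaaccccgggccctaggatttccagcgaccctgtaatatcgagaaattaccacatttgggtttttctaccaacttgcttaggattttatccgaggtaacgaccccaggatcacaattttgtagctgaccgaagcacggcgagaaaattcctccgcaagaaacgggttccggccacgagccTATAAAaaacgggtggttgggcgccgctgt
CARS2: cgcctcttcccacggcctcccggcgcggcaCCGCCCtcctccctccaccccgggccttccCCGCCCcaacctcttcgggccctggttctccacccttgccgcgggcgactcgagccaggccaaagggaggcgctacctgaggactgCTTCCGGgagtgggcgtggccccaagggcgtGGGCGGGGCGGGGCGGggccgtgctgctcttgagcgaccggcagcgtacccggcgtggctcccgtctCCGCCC
EIF4G2: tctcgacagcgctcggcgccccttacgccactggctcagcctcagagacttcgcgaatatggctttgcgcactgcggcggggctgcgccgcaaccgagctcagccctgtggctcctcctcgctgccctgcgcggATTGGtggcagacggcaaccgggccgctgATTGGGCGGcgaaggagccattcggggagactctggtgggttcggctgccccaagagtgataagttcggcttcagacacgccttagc

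EIF4G1, EIF3M, AARS1 and EARS2 were chosen after their positions were seen. EIF4G1 and EIF3M are shown because their summits lay closest before the start. EIF4G1 (chr3:184314356-184314605, plus strand) held E-box letters at 144 and 67 bases before the start and its summit at base 231 of the run. EIF3M (chr11:32583581-32583830, plus strand) held ETS letters 41 bases before the start and its summit at base 243. AARS1 (chr16:70289507-70289756, minus strand) and EARS2 (chr16:23557351-23557600, minus strand) are shown as a cytosolic and a mitochondrial synthetase with summits just past the printed end. AARS1 held the ATF4 element, as its reverse complement, from 187 bases before the start, and EARS2 held ETS and E-box letters within 39 bases of it.
EIF4G1: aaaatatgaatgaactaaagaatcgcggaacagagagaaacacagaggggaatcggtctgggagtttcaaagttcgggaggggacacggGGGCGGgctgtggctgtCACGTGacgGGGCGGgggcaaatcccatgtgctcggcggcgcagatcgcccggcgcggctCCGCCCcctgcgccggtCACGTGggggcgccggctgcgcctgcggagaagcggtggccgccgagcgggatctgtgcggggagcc
EIF3M: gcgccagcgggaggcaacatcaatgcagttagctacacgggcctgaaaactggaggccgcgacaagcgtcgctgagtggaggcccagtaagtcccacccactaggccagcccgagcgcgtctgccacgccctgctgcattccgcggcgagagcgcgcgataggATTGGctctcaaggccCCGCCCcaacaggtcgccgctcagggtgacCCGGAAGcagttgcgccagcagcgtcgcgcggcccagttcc
AARS1: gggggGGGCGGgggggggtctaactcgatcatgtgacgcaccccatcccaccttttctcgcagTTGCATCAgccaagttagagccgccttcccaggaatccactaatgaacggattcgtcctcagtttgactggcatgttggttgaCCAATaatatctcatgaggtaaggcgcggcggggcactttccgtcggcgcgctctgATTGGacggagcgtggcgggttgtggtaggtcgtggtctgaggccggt
EARS2: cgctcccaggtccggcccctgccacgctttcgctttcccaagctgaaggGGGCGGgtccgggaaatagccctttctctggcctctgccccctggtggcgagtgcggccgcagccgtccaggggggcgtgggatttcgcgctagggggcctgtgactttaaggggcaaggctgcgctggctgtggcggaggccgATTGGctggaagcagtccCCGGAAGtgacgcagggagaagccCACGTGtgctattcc

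Of the 11 EIF4 genes analysed, 4 had a summit. The share over all protein-coding genes was 13.8%, and groups of this size are too small to rank. EIF4A2, one of the paralogous RNA helicases that unwind the mRNA leader, had the highest score of any translation gene, 6.90 on the −log10 q scale, at chromosome 3 position 186783372. It ranked 200 of the 2697 summits. The summit of its paralog EIF4A1 scored 2.91 (chromosome 17 position 7572874). EIF4G2, a scaffold protein that lacks the binding site for the cap-binding protein, had a summit of score 5.13 at chromosome 11 position 10809080. EIF4G1, the main scaffold of the cap-binding complex, had one of score 2.87 at chromosome 3 position 184314586. No summit was called at EIF4E, the cap-binding protein gene, whose nearest summit lay 4427 kb away, nor at EIF4G3, EIF4B, EIF4A3, EIF4E1B, EIF4E2 or EIF4E3.

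The other initiation complexes are read against the same 13.8% of all protein-coding genes and given as counts. Of the 14 EIF3 genes, EIF3M alone had a summit, with a score of 3.40 at chromosome 11 position 32583823, near the end of the sequence printed above. EIF3C and EIF3CL are near-identical copies, to which reads may not be assigned uniquely, so the lack of a call there is uncertain. Of the 4 genes of EIF2 subunits, EIF2S3, which encodes the GTP-binding gamma subunit, had a summit of 3.81 at chromosome X position 24054585, 371 bp before its start. None of the 5 EIF2B genes, which encode the exchange factor that reloads EIF2 with GTP, and none of the 4 EIF2 kinase genes had one. Among the 10 remaining initiation genes the one call was EIF6, which encodes a factor that keeps the ribosomal subunits apart. Its summit (2.00, chromosome 20 position 35277940) lay 966 bp beyond the far end of the gene and 182 bp inside MMP24OS, counted from the start of that gene.

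Elongation factor summits were at EEF1D, EEF1G and EIF5A. EEF1D and EEF1G encode the delta and gamma subunits of the complex that reloads EEF1A with GTP, and EIF5A encodes the hypusine-bearing factor that helps ribosomes through slow peptide bonds. EEF1D scored 5.44, at chromosome 8 position 143597532, 117 bp outside the gene and 299 bp from TIGD5. EEF1G scored 2.91 (chromosome 11 position 62574046) and EIF5A 4.46 (chromosome 17 position 7307338). EEF1A1 and EEF1A2, which encode the tRNA carrier itself, had none. Neither did EEF1B2 or EEF1E1, and EEF1E1 is counted with the elongation factors here by its symbol only. Among the regulators, EIF4EBP1, the repressor of EIF4E that mTOR kinase releases, had a summit of 3.72 at chromosome 8 position 38030650, 116 bp inside the gene, and EIF4EBP2, EIF4EBP3 and EIF4ENIF1 had none.

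**Figure D3:**
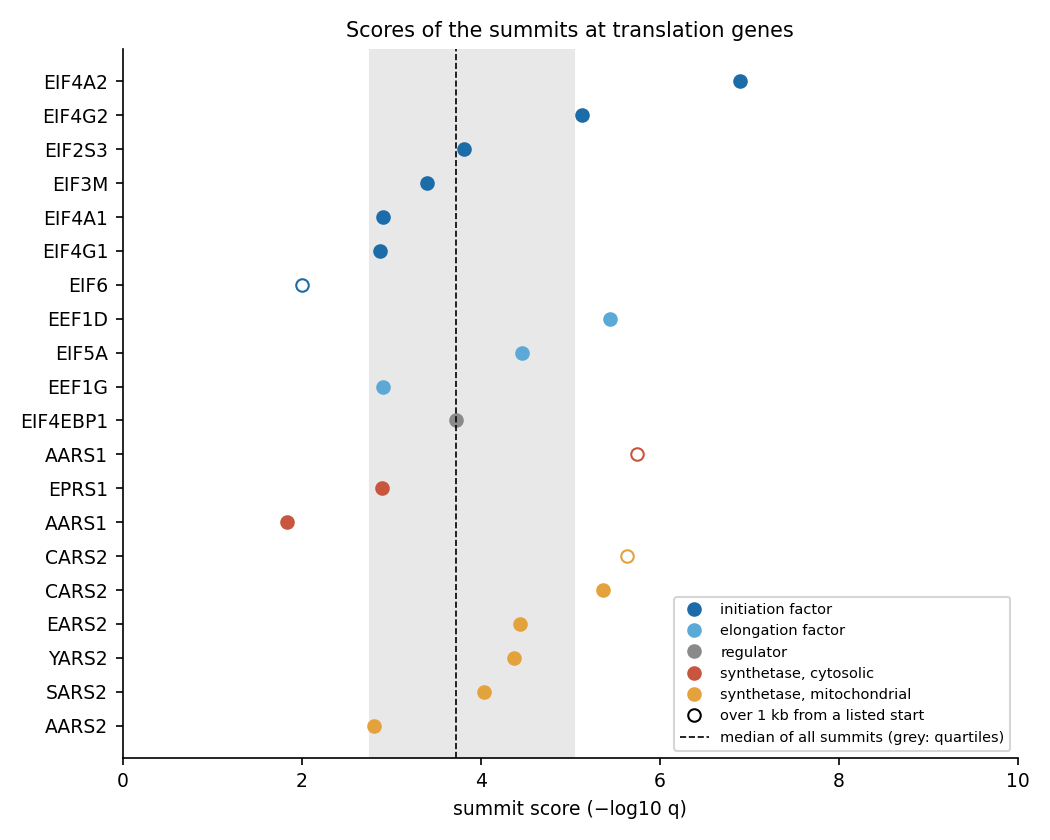
Score of each of the 20 summits (x axis, −log10 q) by gene (y axis), coloured by role. Open circles lie over 1 kb from any listed start of the gene. AARS2, EIF4EBP1 and EEF1D have no listed start and are drawn filled. The dashed line and grey band give the median and quartiles of all 2697 summits. Most points fall in or near the band, EIF4A2 (6.90) is the highest, and AARS1 and CARS2 appear with 2 summits each.

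The cytosolic and mitochondrial synthetases were compared gene by gene. On the cytosolic side, EPRS1, which encodes the fused glutamyl- and prolyl-tRNA synthetase, had a summit of 2.90 at chromosome 1 position 220046490. It was the one gene of the 8 synthetases of the multi-synthetase complex with a call. AARS1, the alanyl-tRNA synthetase gene, had 2 summits at its opposite ends. The one near its start (1.84, chromosome 16 position 70289362) was the lowest-scoring summit at any translation gene. The other (5.75, position 70251989) lay 309 bp past the far end of AARS1 and 49 bp before the start of EXOSC6, an RNA exosome subunit gene. On the mitochondrial side, CARS2 (cysteine) had summits of 5.63 and 5.37 at chromosome 13 positions 110713390 and 110705887, 7503 bp apart. EARS2 (glutamate) scored 4.44 at chromosome 16 position 23557243, YARS2 (tyrosine) 4.37 at chromosome 12 position 32755425, SARS2 (serine) 4.04 at chromosome 19 position 38930570, and AARS2 (alanine) 2.81 at chromosome 6 position 44313288.

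The median score was 2.90 over the 3 cytosolic summits and 4.40 over the 6 mitochondrial ones, and the ranges overlapped (1.84 to 5.75 at cytosolic and 2.81 to 5.63 at mitochondrial genes). Of 15 amino acids with a cytosolic and a mitochondrial gene among those analysed, with EPRS1 counted under glutamate, alanine and glutamate had a summit at both genes. At 3 (cysteine, serine and tyrosine) the mitochondrial gene alone had one, at 0 the cytosolic gene alone, and at 10 neither. The 0 depends on which genes are paired. EPRS1 also serves proline, whose mitochondrial gene PARS2 had no summit. For phenylalanine, the cytosolic gene FARSB, which the choice by symbol leaves out, had a summit of 2.52 and the mitochondrial FARS2 had none. In no pair did both genes share a summit, and HARS1 and HARS2 had none.

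**Figure D4:**
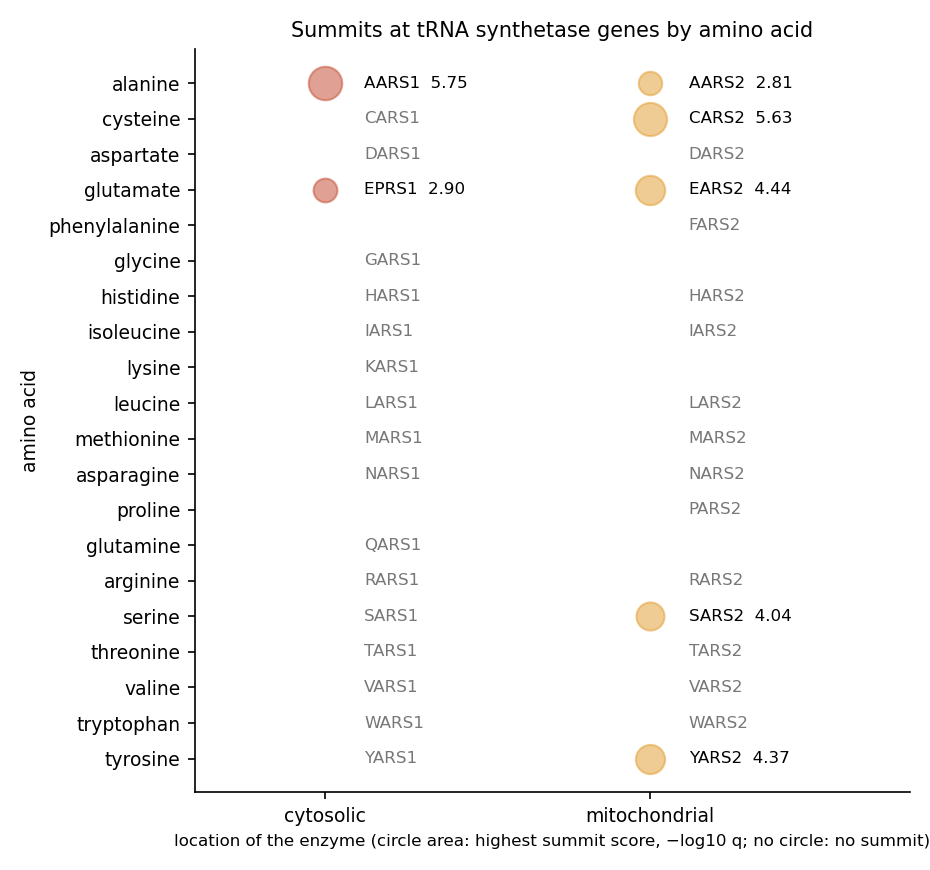
Synthetase genes by amino acid (y axis) and location of the enzyme (x axis: cytosolic, mitochondrial); circle area gives the highest summit score (−log10 q) at the gene, printed beside it, and grey names had no summit. EPRS1 is drawn under glutamate alone. The score of 5.75 at AARS1 belongs to the summit past its far end, and the summit near its start scored 1.84. Circles stand at 2 cytosolic and 5 mitochondrial genes, on both sides for alanine and glutamate.

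Scores at translation genes lay within the range of the list. The 20 summits ran from 1.84 to 6.90 with a median of 3.93 (95% interval 2.91 to 5.13), against a median of 3.72 and quartiles of 2.76 and 5.04 over all 2697 summits. At or above the list's median lay 12 of the 20. None of the 20 reached 10, a score that 42 of all summits reached. The score is the authors' value for a peak and ranks peaks within this list.

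The summits were then placed by their side of the gene start. For 14 gene and summit pairs the summit was within 1 kb of a listed start. All 6 of the synthetase summits among them lay downstream of the start, at 15 bp (EPRS1), 107 bp (EARS2), 144 bp (AARS1), 193 bp (SARS2), 229 bp (CARS2) and 472 bp (YARS2). Of the 8 factor summits, 7 lay upstream, at 8 bp (EIF3M), 20 bp (EIF4G1), 154 bp (EIF4G2), 155 bp (EEF1G), 205 bp (EIF4A2), 290 bp (EIF5A) and 371 bp (EIF2S3). EIF4A1, 49 bp downstream, was the exception. Over all protein-coding genes, 1201 of 2106 such pairs (57.0%) were upstream. The exact intervals of the upstream share were 47.3 to 99.7% for factors and 0 to 45.9% for synthetases. Counted from the outer 5′ end of each gene, 6 of 8 factor summits and 0 of 6 synthetase summits were upstream, against 43.4% over all protein-coding genes. EIF5A, which has 6 listed starts, changed side. The synthetase count could not change, because a summit downstream of a listed start is also downstream of the outer end. From the outer end, the exact intervals were 34.9 to 96.8% for factors and 0 to 45.9% for synthetases. These overlap, and both hold the 43.4% of all protein-coding genes. The difference in side between factor and synthetase summits was noticed after the positions were seen, rests on 14 pairs and was not tested.

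**Figure D5:**
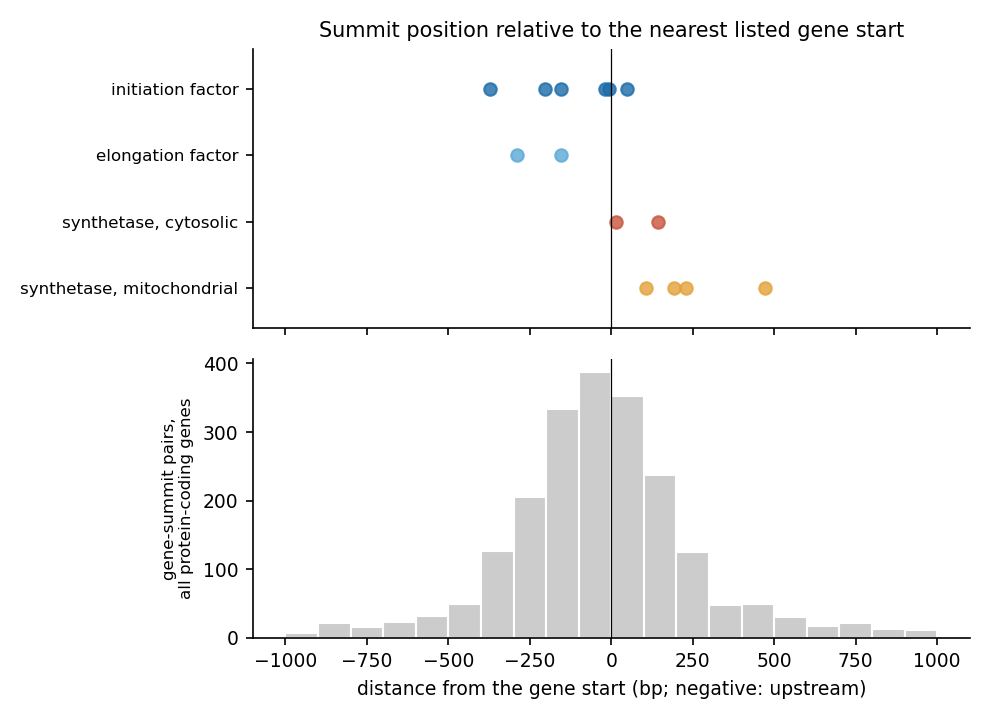
Distance of each summit from the nearest listed start of its gene (x axis, bp, negative upstream): above, the 14 pairs at translation genes within 1 kb, by role; below, the number of gene and summit pairs in bins of 100 bp over all protein-coding genes. The 6 synthetase points lie right of the start and 7 of the 8 factor points left of it, while all genes spread to both sides.

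The same pattern appears in part when no start is used, since a summit upstream of the outer start lies outside the gene, so the next counts are not a second observation. Among all summits of these genes, 3 of 11 factor summits (27.3%, 6.02 to 61.0) and 8 of 9 synthetase summits (88.9%, 51.8 to 99.7) lay inside the outer limits of the gene, against 58.2% of gene and summit pairs over all protein-coding genes. Distance to the start was otherwise like that of other genes: 11 of 17 pairs (64.7%) lay within 250 bp of a listed start, against 61.5% of all such pairs. A summit within 1 kb of a start was called at 17 of the 104 genes (16.3%, 9.82 to 24.9), against 12.1% of all protein-coding genes, and within 250 bp at 14 (13.5%), against 8.74%. AARS2, EIF4EBP1 and EEF1D had no listed start and were counted from the nearer gene end.

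Several summits could belong to a neighbour as well. Of the 14 pairs within 1 kb of a start, 2 (14.3%) also lay within 1 kb of the start of another protein-coding gene, against 13.8% of all summits near a coding start. These were the summit of SARS2, 374 bp before the start of MRPS12, a mitochondrial ribosomal protein gene on the opposite strand, and that of EARS2, 484 bp before the start of UBFD1. The AARS1 summit near its start lay 405 bp from the outer end of DDX19B, an RNA helicase gene on the opposite strand. The EIF4A1 summit lay 905 bp from SENP3 and inside SENP3-EIF4A1, annotated as a non-coding RNA gene. The higher of the CARS2 summits lay 129 bp inside ING1, counted from a start of that chromatin reader gene, and 132 bp inside the outer end of CARS2. The summit of EIF4G2 lay 217 bp before the start of a long non-coding RNA gene on the opposite strand. At these places a summit list cannot tell which gene the protein was near.

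Matches to the motif letters named above were counted over the windows of 250 bases before and 50 after the start, by gene. The ATF4 element was found at 7 of 14 cytosolic synthetase genes, 1 of 14 mitochondrial ones (7.14%) and 1 of 55 factor genes (1.82%), against 3.6% of all protein-coding genes with a window. The 7 were AARS1, CARS1, GARS1, IARS1, MARS1, NARS1 and TARS1, of which AARS1 had a summit. ETS letters were found at 9 of 14 cytosolic synthetases (64.3%), 7 of 14 mitochondrial ones and 15 of 55 factors (27.3%), against 16.5% of all. The E-box was found at 18 of the 83 translation genes (21.7%) against 10.9%, and the YY1 letters ATGGCGGC at 15 (18.1%) against 5.23%. GGGCGG stood in 78.3% against 64.3% and CCAAT in 50.6% against 42.1%. TATAAA stood in 5 (6.02%) against 12.4%, with EIF4A2 the one among those with a summit. The NRF1 core GCATGCGC was found at 4 (4.82%) against 4.89%, the full NRF1 motif and the cyclic AMP response element at 1 gene each (1.2%) against 1.99% and 3.0%, and the ZBTB33 motif at none against 0.726%. The NRF1 core is part of the full motif, so these counts overlap. Translation genes with and without a summit were set side by side for the more frequent motifs. CCAAT stood at 10 of 15 genes with a summit and 32 of 68 without, GGGCGG at 12 of 15 and 53 of 68, and ETS letters at 6 of 15 and 25 of 68. The E-box stood at 3 of 15 genes with a summit and 15 of 68 without, the YY1 letters at 2 of 15 and 13 of 68, and the ATF4 element at 2 of 15 and 7 of 68. Letters in a window are a description and do not show that a factor binds there.

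The 86 genes without a call were placed by their distance from the nearest summit. On chromosomes with summits, 85 of them lay at a median of 139 kb from it, 34 of them within 100 kb, against a median of 265 kb over the 17209 protein-coding genes without one. A summit lay within 5 kb of 3, namely EIF2AK4, a kinase that senses uncharged tRNA (3.11 kb), EIF3D (3.72 kb) and EEF2, the translocase gene (4.87 kb). At the inner side of the 1 kb limit, EIF6 (966 bp) was the outermost call and EIF2S3 (371 bp) the next. More than 1 Mb from any summit lay 12 genes, with NARS1 the farthest at 35.9 Mb on chromosome 18, where 4.44% of all protein-coding genes had a summit. The counts within 100 kb and beyond 1 Mb were not taken over all protein-coding genes, so they have no share to be read against.

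Other genes of translation, outside the symbol rule, were counted in 4 lists, beside the 13.8% of all protein-coding genes. Of 8 other synthetase and synthetase-complex genes, FARSB, the beta subunit gene of the cytosolic phenylalanyl enzyme, had a summit of 2.52, 19 bp inside its start. Of 14 termination, recycling and other cytosolic translation genes, 3 had one (21.4%, 4.66 to 50.8). These were DOHH, which completes the hypusine of EIF5A (6.84, 59 bp before its start), SECISBP2, which serves selenocysteine insertion (5.43), and PABPC1, the poly(A)-binding protein gene (5.04). Of 14 mitochondrial translation factor genes, GFM2, a ribosome recycling factor gene, had a summit of 1.75, 121 bp inside its start. None of 7 stress response genes, ATF4 and its targets among them, had a summit (interval to 41.0%). The share was 7.14% (0.181 to 33.9) at the mitochondrial factors and 29.4% (10.3 to 56.0) at the mitochondrial synthetases, with overlapping intervals.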

How the data were processed

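The authors deposited 1 list of peak summits for the series, with 1 base and 1 score per peak. The submitters' processing notes name the build hg38, the trimmer Trimmomatic 0.39, the aligner Bowtie2 2.4.4 and the peak caller MACS2 2.2.7.1. The design text names input DNA as the control of the peak calling. Pooling of replicates is not stated in the sources. The deposited score was read as −log10 of the q-value, since its lowest value, 1.31, is just above the 1.3 of a q of 0.05. No read counts were given, so depth is unknown, and the lack of a summit does not show that WSTF was absent.

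Summits were placed on RefSeq genes of GRCh38.p14, on whose chromosomes hg38 coordinates hold, in Python 3.11.15 with pandas 2.3.3 and SciPy 1.17.1. A gene was called when a summit lay inside its outer limits or within 1 kb. Starts and strands came from the RefSeq promoter table, which lists 83 of the 104 genes, and distances were taken from the nearest listed start. The overlap count was tested on simulated data. Shares carry exact Clopper-Pearson 95% intervals. Intervals of medians come from exact binomial order statistics. Every gene with a call is named, as the rule for named genes asked. The genes and lists were chosen with earlier results of these data known, and members were set beside all protein-coding genes without a test. A gene of the EIF pattern is not reported here. Windows of 0 bp and 5 kb, gene ends alone, score limits, counts of distinct summits and other gene sets were tried as alternatives.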

Additional observations from a re-analysis of the deposited data

How the results depend on the processing

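Of 33 alternative values for 8 results, 26 stayed within 1.5 times the main count or inside the interval of the main median. The 26 include counts of distinct summits set against counts of genes, which are a different quantity. These were 20 summits against 18 translation genes and 11 against 11 factor genes. For synthetases they were 3 against 2 cytosolic and 6 against 5 mitochondrial genes. With no window around the gene, 10 translation genes (against 18) and 3 factor genes (against 11) had a summit, because most factor summits lay just outside the gene; 4.35% of factor genes were then called, against 8.12% of all protein-coding genes. With scores at or above the list's median, calls fell to 11 translation genes, 6 factor genes and 1 cytosolic synthetase gene (10.6%, 8.7% and 5.56%, against 7.32% of all protein-coding genes). With scores of at least 3 they fell to 7 factor genes and 1 cytosolic synthetase gene (10.1% and 5.56%, against 9.63%). These settings use fewer summits. The cytosolic gene kept under both score limits was AARS1, through its summit of 5.75. That summit lies 309 bp past the far end of AARS1 and 49 bp before the start of EXOSC6. Mitochondrial synthetases kept 5 of 17 calls without a window (29.4%, 10.3 to 56.0), against 8.12% of all protein-coding genes, which lies below that interval. Under both score limits they kept 4 (23.5%), against 7.32% and 9.63%. These differences were not tested. Adding FARSA, FARSB and TARS3 gave 3 of 21 cytosolic genes. The count of summits upstream of a start with the outer gene end as reference was chosen after seeing the data. For synthetases this count could not change, so its place among the 26 was fixed in advance. No paired analysis was possible because there is 1 list without replicates. Small gene groups limit every share, and starts were missing for 21 genes.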
